A study of Mus musculus with 19 samples.

Results

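The end point of a 10-day conversion was set against its start: 3 libraries of wild-type cells at day 10 (WT D10, replicates A, B and C) against 3 of the same cells at day 0 (WT D0, A, B and C). These 6 of the series' 19 samples were chosen by their titles. They held 486676 deposited peaks on chromosomes 1 to 19, all of which entered the region classes. Windows, bins, chromosome shares, rank overlaps and the main width tests used only the 54997 strongest peaks of each library. The cells were mouse pre-iPSCs, derived from mouse embryonic fibroblasts and stalled on the way to induced pluripotent stem cells. Per the labels, the medium held ascorbic acid and 2i, a pair of kinase inhibitors acting on GSK3 and MEK, and the labels give this treatment to the D0 libraries as well. The other libraries are WT cells at day 2 (D2, 3 libraries), a pair of KO lines (KO1 and KO2, 1 library each at D0, D2 and D10; the labels do not name the deleted gene), mESC (V6.5, a mouse embryonic stem cell line) at 0, 12 and 72 hours with the same treatment label (1 library each), and an input. Whether the replicates came from separate cultures is not stated, so the p-values refer to the spread between libraries, which may be technical.

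5-Hydroxymethylcytosine (5hmC) is made when TET enzymes oxidise 5-methylcytosine, and it is an intermediate in the removal of DNA methylation. Ascorbic acid keeps the iron of TET enzymes in the reduced form that they need. In mammalian genomes 5hmC is known for marking enhancers and the bodies of active genes, so its map differs between cell types. Here 5hmC-bearing DNA fragments were tagged on the 5hmC base, captured and sequenced, and the authors called peaks of enrichment in each library. No annotation of the genome build (mm9) was used here, so loci are given by position, without gene names or sequences.

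WT D10 libraries held 86096, 77245 and 54997 peaks (A, B and C), against 92100, 114860 and 61378 in WT D0 libraries. The means were 72779 ± 16023 peaks at D10 and 89446 ± 26840 at D0 (SD, n = 3 each), and the groups overlapped (two-sided exact permutation p = 0.4, where 0.1 is the smallest p that 3 against 3 libraries allow). The D10 lists held a smaller share of strong peaks. A −log10 q of at least 5 was reached by 78.5, 59.6 and 73.9% of D10 peaks, against 90.8, 94.6 and 88.2% of D0 peaks (difference −20.5 percentage points, exact permutation p = 0.1). Sequencing depth relative to the shared input, read from the steps of the fold values, was 1.37, 1.64 and 1.03 for D10, against 1.40 and 1.47 for D0 A and B. It was not estimated for WT D0 C, whose peaks were scored against a background of its own and whose run name, unlike the others, does not contain the word input. WT D0 C stood apart in its overlap too: it shared 52.8 to 52.9% of its strongest peaks with D0 A and B, which shared 73.4 to 76.1% with each other. Run names follow a different style for each replicate letter, and those of B contain the word All, whose meaning is not given.

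Loci with a peak in every library of both days were few. Merging the peaks of the 6 libraries gave 232084 regions. Of these, 3283 (1.41%) had a peak in every library of both days and are called shared. Regions with a peak in all 3 D10 libraries and in no D0 library, called gained, numbered 19675 (8.48%). Regions with a peak in all 3 D0 libraries and in no D10 library, called lost, numbered 27069 (11.7%). Gained regions covered 10.96 Mb and lost regions 17.3 Mb, against 3.39 Mb for shared ones. The other 182057 (78.4%) were in no class, and 28622 regions (12.3%) had a peak in at least 1 library of each day. These classes are counts of presence and carry no test per region.

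The class sizes rested in part on replicate C. Without WT D10 C, 34986 regions counted as gained, 27645 as lost and 5472 as shared, so that gained regions outnumbered lost ones. Without WT D0 C, 57817 counted as lost and 5752 as shared. The surplus of lost over gained regions was small when each library was cut to the 54997 peaks with the highest −log10 p (the length of the shortest list), with 15409 gained, 17891 lost and 1876 shared regions. Gained regions made up 23.7, 26.3 and 37.5% of the peaks of D10 A, B and C, and lost regions 31.2, 23.7 and 45.5% of those of D0 A, B and C.

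The classes were read in peak lists that had no part in calling them. Whether the B lists, with All in their run names, hold reads of other letters is not known, so the letters may not be independent. Each letter was held out in turn, the classes were called from the other 2 letters, and the held-out pair was read. Regions gained in 2 letters had a peak in the held-out D10 library in 79.5, 80.1 and 56.7% of cases (A, B and C held out), against 1.89, 7.13 and 2.497% in the held-out D0 library. Regions lost in 2 letters had a peak in 7.71, 4.28 and 1.82% of cases in the held-out D10 library, against 84.5, 93.3 and 47.1% in the held-out D0 library. In each letter the days were thus far apart, and the C libraries missed the most regions of their own day.

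The strongest peaks recurred most often, both within a day and across days. Among the 1000 strongest D10 peaks, 95.3 ± 2.15% overlapped a peak of another D10 library and 21.9 ± 2.60% one of a D0 library (SD over 3 libraries, averaged over the libraries they were set against). For D10 peaks ranked 20001 to 54997 the shares were 42.7 ± 0.580% within D10 and 10.6 ± 1.15% with D0. D0 peaks gave a like picture, with 95.1 ± 4.41% and 22.7 ± 6.89% for the strongest 1000 and 48.5 ± 5.62% and 9.95 ± 0.390% for the last ranks. Even in the strongest 1000, at most 28.6% of a library's peaks lay in the cut lists of the other day and at most 33.6% in the full ones, and at least 90% lay in cut lists of its own day. The strongest 1000 were also wider, with medians of 513, 541 and 427 bp in D10 A, B and C, against 316, 304 and 259 bp in the last ranks. In D0 A, B and C they were 659, 890.5 and 523 bp, against 346, 457 and 298 bp. Overlap was counted at 1 bp, and the share that width alone would give was not computed.

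**Figure D1:**
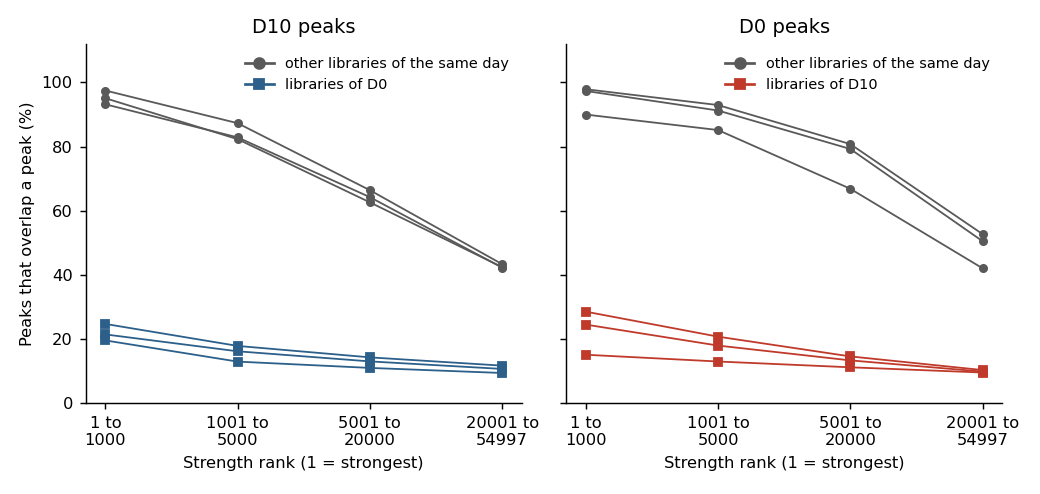
Share of peaks (%, y axis) that overlap a peak of other libraries, by strength rank within the list (x axis), for the 3 D10 libraries (left) and the 3 D0 libraries (right); each line is 1 library, averaged over the libraries it was set against. Same-day shares lie between 90 and 97.9% in the strongest 1000 peaks, while shares with the other day lie between 15.1 and 28.6%.

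Of the 6 gained regions with the strongest peaks, 5 were under 1 kb. The region at chr13:77248623-77249231 had its D10 summits at 77248906, 77248899 and 77248932 and no D0 peak. It was above the 99.99th percentile of peak strength in every D10 library, was absent from both KO lines at D0 and had a peak in all 3 mESC libraries. The region at chr2:146871189-146871717 also had a peak in all 3 mESC libraries, and all 3 D2 libraries held it too. The region at chr11:74827808-74828244 had a peak in all 3 D2 libraries and in both KO lines at D10, but in no mESC library. The longest of the 6 named gained regions, chr11:5067916-5070606, spanned 2691 bp with 2556, 2646 and 2533 bp covered in D10 A, B and C. The named regions at chr2:169024940-169025793 and chr4:57211448-57212410 completed the set, and none of the 6 had a peak in either KO line at D0. This was so for most gained regions, since KO1 and KO2 at D0 had a peak in only 1.34 and 4.79% of all of them.

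All 6 of the strongest lost regions had a peak in both KO lines at D0, and none had one in mESC at 12 or 72 hours, while 3 of them had one in mESC at 0 hours. Over all lost regions, KO1 and KO2 at D0 had a peak in 72.1 and 69.6%. The mESC lists had one in 13.0, 4.45 and 0.462% at 0, 12 and 72 hours. The region at chr3:58397302-58398410 had D0 summits at 58397690, 58397675 and 58397676 and no D10 peak. It kept a peak in all 3 D2 libraries and in both KO lines at D10. The same was true of chr11:45792533-45793855 and of chr8:26212814-26214298. At chr13:57426050-57426956 a peak was seen in only 1 of the 3 D2 libraries. At chr5:134922846-134923689 and chr5:67659997-67660929 all 3 D2 libraries had a peak, as did 1 of the 2 KO lines at D10.

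The peaks of the days did not always coincide within a shared region. Of the 3283 shared regions, 2464 (75.1%) had at least 1 bp under a peak in all 6 libraries. The other 819 (24.9%) had none, and in 648 of them each day's 3 libraries had bp in common among themselves. The bp common to all 6 libraries summed to 0.533 Mb, which is 6.56% of the 8.13 Mb common to the 3 D10 libraries and 4.09% of the 13.1 Mb common to the 3 D0 libraries. The median length was 886 bp for shared regions, which merge peaks of 6 libraries, against 493 bp for gained and 557 bp for lost regions, which merge peaks of 3.

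Peak summits within shared regions lay farther apart between days than within a day. The median distance between the summits of a pair of libraries was 59 to 71 bp among D10 libraries, 136 to 157 bp between D10 and D0 libraries, and 38 to 47 bp among D0 libraries. Pairs of a D10 library with WT D0 C, at 137, 138 and 152 bp, lay within the range of the other between-day pairs. The between-day mean exceeded the mean of the within-day values by 90 bp (exact permutation of libraries between days, p = 0.1, the smallest possible). This excess depended on the length of the merged region. It was 16.2 bp in the 821 regions under 650 bp and 338 bp in the 1357 regions of at least 1000 bp. In the 2464 regions with bp common to all 6 libraries it was 45 bp.

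**Figure D2:**
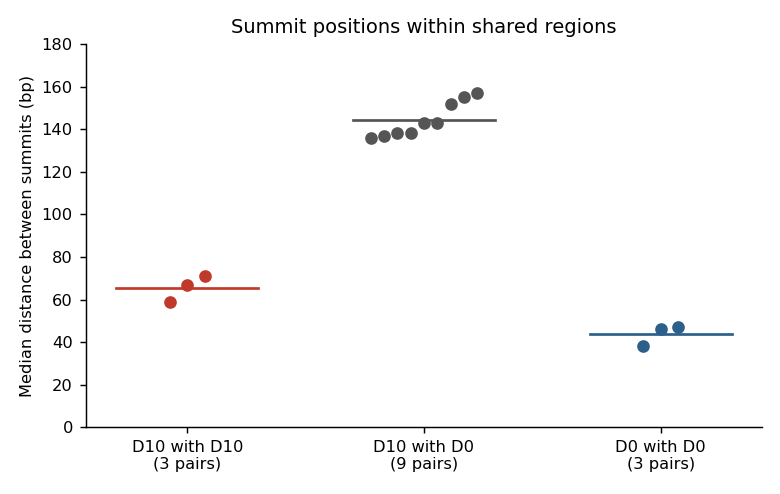
Median distance between peak summits (bp, y axis) over the shared regions, by kind of pair (x axis); each point is 1 pair of libraries and lines are means. Every pair of a D10 with a D0 library, at 136 to 157 bp, lies above every pair of the same day.

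The strongest shared regions show both forms. At chr7:36473122-36474826 the D10 summits lay at 36474512, 36474527 and 36474522, against 36473406, 36473410 and 36473415 at D0, so that the summits of the days lay at opposite ends of the region. The D10 peaks there covered 365, 484 and 461 bp, against 1391, 1676 and 877 bp at D0. At chr12:112968174-112970531 the reverse held for width, with 1884, 1248 and 1158 bp covered at D10, against 513, 625 and 552 bp at D0. At chr11:3084697-3085237 the summits of the 2 days fell on the same spot, at 3084991, 3084981 and 3084988 at D10 and at 3084960, 3084988 and 3084944 at D0. This was the only one of the 6 named shared regions with a peak in all 3 mESC libraries. At chr7:137840324-137841375 the summits of the days also interleaved, while at chr10:127028726-127031292 and chr6:47605570-47607607 they did not.

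The classes differed in their presence at D2. Shared regions had a D2 peak in 98.2, 97.2 and 95.3% of cases (D2 A, B and C), lost regions in 64.1, 62.1 and 55.6%, and gained regions in 45.6, 34.1 and 27.2%. Over all merged regions the shares were 44.7, 39.5 and 33.5%. Of the gained regions, 9642 (49.0%) had no peak in any D2 library and 4186 (21.3%) had one in all 3; over all merged regions these shares were 48.4 and 27.4%. Of the lost regions, 12836 (47.4%) still had a peak in all 3 D2 libraries and 7270 (26.9%) in none. Without WT D0 C, the mean share of lost regions with a D2 peak was 45.4%, against 60.6% with it.

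Few lost regions had a peak in mESC at 72 hours, and more gained regions did. At 0, 12 and 72 hours, mESC lists held a peak in 10.6, 28.1 and 28.2% of gained regions and in 13.0, 4.45 and 0.462% of lost regions. For the 72-hour list the 95% Wilson interval was 27.5 to 28.8% for gained and 0.388 to 0.550% for lost regions, covering counting error only. Over all merged regions the shares were 8.11, 9.84 and 7.002% at 0, 12 and 72 hours. Among gained regions with no D2 peak, 33.9% had a peak in mESC at 72 hours, against 18.2% of those with a peak in all 3 D2 libraries. Over all merged regions the same split gave 8.75%, against 4.84%, a ratio close to that in gained regions. Shared regions had an mESC peak in 30.2, 39.5 and 16.6% of cases at 0, 12 and 72 hours. Without WT D0 C, lost regions had a peak at 0 hours in 8.11% of cases, against 13.0% with it. The 72-hour shares without it were 28.0% for gained, 0.44% for lost and 18.3% for shared regions.

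In the KO lines few gained and most lost regions had a peak at D0, and the lines differed at D10. At D0, KO1 and KO2 had a peak in 1.34 and 4.79% of gained regions, in 72.1 and 69.6% of lost regions and in 83.2 and 84.8% of shared ones, against 23.6 and 28.3% of all merged regions. Without WT D0 B the shares of gained regions were 2.74 and 7.14%, and with equal lists that of KO1 was 2.99%. At D10, KO1 had a peak in 18.3% of gained and 69.8% of lost regions, while KO2 had one in 40.9% of gained and 31.5% of lost regions. Over all merged regions the shares were 36.6% (KO1) and 30.4% (KO2), so that KO2 held lost regions about as often as any merged region. With equal lists KO1 had a peak in 11.6% of gained regions and KO2 in 20.5% of lost ones. Shared regions had a peak in 95.4% (KO1) and 87.9% (KO2) of cases at D10. With 1 library per line and day, the difference between the lines has no replicate check. Presence in KO at D10 went with presence at D2 in WT. Gained regions with a peak in all 3 D2 libraries had one in 59.8% (KO1) and 83.6% (KO2) of cases at D10, against 1.51 and 15.0% for those with no D2 peak. Over all merged regions the same split gave 82.7 and 67.1%, against 9.08 and 8.25%. Of the shared regions, 2034 had a peak in all 15 pre-iPSC libraries, and 87 in all 18 libraries.

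**Figure D3:**
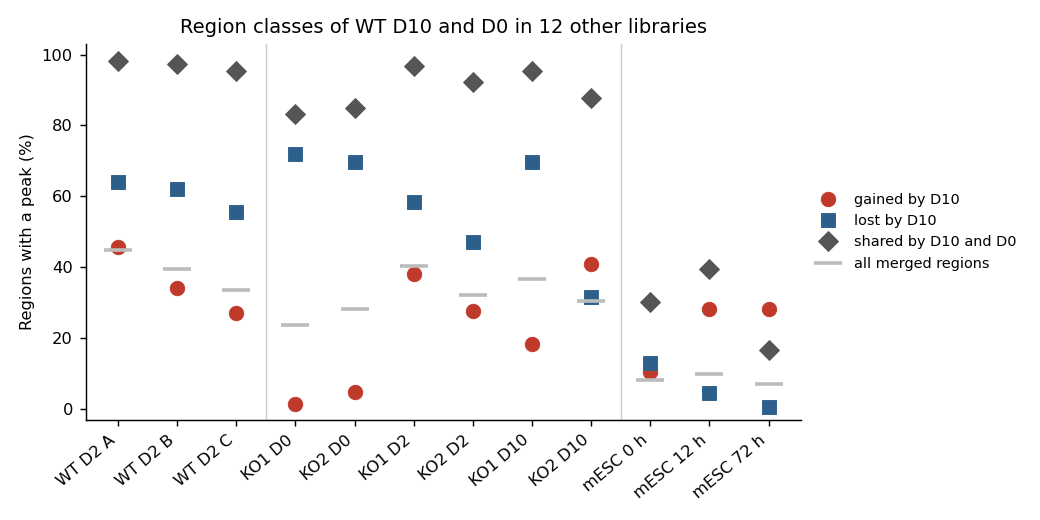
Share of gained, lost and shared regions (%, y axis) with a peak in each of the 12 libraries not used to call them (x axis); grey dashes give the share over all merged regions. In mESC at 72 hours 28.2% of gained and 0.462% of lost regions have a peak, and KO1 and KO2 differ at D10.

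Change was then tested over 10 kb windows by the bp that each library's strongest peaks covered. Of 14757 windows tested by limma over the 9 WT libraries, 3343 (22.7%) were higher at D10 and 3997 (27.1%) lower (Benjamini-Hochberg adjusted p at or under 0.05). The median window moved by −0.18 on the log2(covered bp + 200) scale, and relative to it 3828 windows were higher and 3445 lower. With all deposited peaks and no scaling the split was 3030 higher and 8686 lower. Without WT D0 B, which had the most peaks of the 6 D10 and D0 libraries and the widest, 3172 were higher and 2625 lower. The split turned in the same way without WT D0 A (3230 higher and 2718 lower) and with the 6 libraries alone (3538 and 2542). Without WT D0 C (3870 higher and 4138 lower), or without any D10 library, lower windows stayed the more numerous. Of the windows lower at D10, 1101 had no deposited peak in any D10 library, and of those higher at D10, 486 had none in any D0 library.

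The largest rises were windows with little or no D0 cover. Values are covered bp after scaling each library to the mean total, so a value can exceed the bp covered in the list. At chr15:76000001-76010000, D10 libraries had 6883, 8022 and 9961 covered bp, against 0, 115 and 0 at D0 (log2 change 5.17 ± 0.33 SE, adjusted p = 7.85e-06 by limma). At chr2:179920001-179930000 they had 7681, 7383 and 7337 bp, against 315, 0 and 0 bp at D0 (log2 change 4.81 ± 0.79 SE, adjusted p = 0.000949). Windows were named only where the days did not overlap. With D0 cover at or near 0, the size of the change depended on the pseudocount. At chr15:76000001-76010000 the log2 change was 6.79 with 50 bp and 3.15 with 1000 bp in place of 200 bp. Of the 8 largest rises, 4 lay on chromosome 15, which held 4.82% of all gained regions. The fourth of them, at chr15:75930001-75940000, lay close to the one at chr15:76000001-76010000. At chr15:77590001-77600000 the strongest peaks covered nothing in any D2 library either, while D10 libraries had 4697, 6374 and 5264 bp. All deposited peaks, unscaled, covered 374, 0 and 241 bp there in D2 A, B and C. At chr15:88990001-89000000 D2 libraries had 1357, 2549 and 2053 bp and D10 libraries 5138, 5734 and 7245 bp. In the full lists, unscaled, D2 libraries had 4045, 3350 and 2996 bp there and D10 libraries 4711, 5087 and 5035 bp.

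The remaining large rises lay on chromosomes 10, 11 and 19. At chr11:120670001-120680000 the D10 mean was 7600 ± 871 bp under the strongest peaks, against 0 in every D0 library (SD, n = 3). All deposited peaks, unscaled, covered 234, 428 and 0 bp there in D0 A, B and C. That window held 4 gained regions, and chr19:53420001-53430000 held 6. At chr10:121040001-121050000 the strongest peaks covered 5236, 5636 and 4839 bp at D10 after scaling, and 0 in every D0 library. All deposited peaks, unscaled, covered 4825, 4772 and 3363 bp there in D10 A, B and C, and 0, 314 and 0 bp in D0 A, B and C. In mESC they covered 1792, 2600 and 1734 bp at 0, 12 and 72 hours.

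The largest falls were smaller in covered bp than the largest rises. At chr10:80410001-80420000, D10 libraries had 0 covered bp each, against 3334, 3311 and 1446 bp at D0 (log2 change −3.77 ± 0.33 SE, adjusted p = 3.61e-05 by limma). All deposited peaks, unscaled, covered 551, 0 and 0 bp there in D10 A, B and C. At chr13:114390001-114400000 they also had 0 each, against 4229, 3837 and 786 bp at D0, where WT D0 C was far below A and B. The D2 libraries still had 3537, 3722 and 3232 bp there, and all deposited peaks covered 4828 bp in KO1 and 2955 bp in KO2 at D10. At chr17:9160001-9170000 the strongest peaks covered 0 bp in each D10 library, 2991, 2293 and 1950 bp at D0, and 614, 558 and 504 bp at D2. The full lists, unscaled, gave another picture of D2. All deposited peaks covered 2143, 2137 and 1596 bp in D2 A, B and C, against 2958, 3555 and 1591 bp at D0. At D10 they covered 492, 0 and 0 bp. The other falls lay at chr10:20770001-20780000, chr8:90450001-90460000, chr1:55540001-55550000, chr11:45880001-45890000 and chr6:55110001-55120000. Under the strongest peaks their D0 means were 2442 to 2540 bp and their D10 means at most 1.18 bp. In mESC at 72 hours, deposited peaks covered no bp in 7 of the 8 windows and 213 bp in the remaining one. That list is short, with 23876 peaks over 7.02 Mb, and the share of all tested windows without such cover was not computed.

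**Figure D4:**
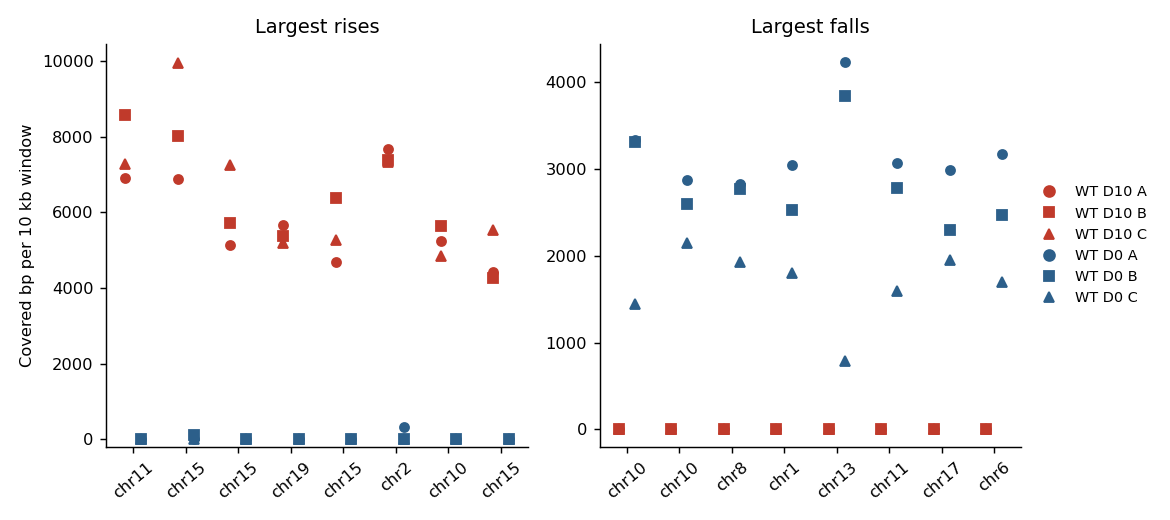
Covered bp per 10 kb window (y axis) in each D10 library (red) and D0 library (blue) for the 8 windows with the largest rises (left) and the 8 with the largest falls (right), in order of size. The 16 windows were picked among those in which the days do not overlap. WT D0 C is the lowest D0 library in every fall.

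Among the tested windows, those that rose and those that fell differed in where D2 stood. Among the windows higher at D10, the median cover was 180 bp at D0, 637 bp at D2 and 1565 bp at D10. D2 was nearer to D10 than to D0 in 1674 of them (50.1%) and above both other days in 583 (17.4%). Among the windows lower at D10, the medians were 1124 bp at D0, 1046 bp at D2 and 108 bp at D10. D2 was nearer to D10 in 430 of them (10.8%) and above both other days in 1917 (48.0%). Over all tested windows D2 was nearer to D10 in 35.4% and above both other days in 45.9%. Windows entered the test by their mean cover over all WT libraries, D2 included, so cover at D2 helped decide which windows were tested. With the 6 libraries of D0 and D10 alone, 3538 windows were higher and 2542 lower, against 3343 and 3997 with D2 included. How far this filter set the position of D2 in falling windows was not tested.

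Fewer windows were called in KO than in WT cells. In a fit of all 15 pre-iPSC libraries, 183 of 15731 windows (1.16%) were higher at D10 than at D0 in KO cells and 33 (0.21%) lower, by limma's adjusted p at or under 0.05; WT cells had 2275 (14.5%) and 4289 (27.3%). In the windows higher at D10 in WT, the median log2 change was 0.96 in KO and 2.22 in WT. In those lower at D10 in WT, it was −0.33 in KO and −2.20 in WT. These windows were chosen by the WT change, so the medians are a description. The interaction of day with genotype was called in 256 windows (1.63%) where the WT change was higher than the KO change and in 1009 (6.41%) where it was lower. KO had 2 libraries a day, from lines that differed, and WT had 3.

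Gained regions lay nearer to other gained than to lost regions, and lost regions nearer to other lost than to gained regions. The nearest other gained region was a median of 9.46 kb away from a gained region, and the nearest lost one 15.97 kb. From a lost region the nearest other lost one was 12.6 kb away and the nearest gained one 29.9 kb; gained regions are fewer, which adds to this distance. Within 10 kb of a gained region, 51.2% had another gained and 36.4% a lost region. Of the 10 kb windows, 15917 held a gained region, 23757 a lost one and 3056 both. How many would hold both by chance was not computed. Of the 1 Mb bins, 1958 held a gained region, 2125 a lost one and 1815 both. The counts of the classes rose together at that scale (Spearman correlation 0.739 over 2270 bins).

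The series with the most gained regions and no lost region between them, 35, ran over 1.90 Mb at chr4:145396983-147296933. It held 76, 70 and 51 peaks in D10 libraries, against 3, 8 and 8 in D0 libraries. A much denser one at chr12:111802399-111907410 packed 27 gained regions into 0.105 Mb, with 48, 54 and 48 peaks at D10, against 3, 4 and 3 at D0. The series with the most lost regions held 51 of them over 3.19 Mb at chr12:26061122-29255826, with 18, 13 and 7 peaks at D10, against 122, 138 and 94 at D0. Another, at chr4:12582305-21734240, was longer at 9.15 Mb and held 46. The days did not overlap in any of these stretches, which were picked for that pattern and carry no test.

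At the scale of 1 Mb, 413 of 1698 bins tested by limma on log2(strongest peaks + 2) were higher at D10 (24.3%) and 598 lower (35.2%), at an adjusted p at or under 0.05. Relative to the median bin, which moved by −0.15, 507 were higher and 479 lower. Of the 5 bins with the largest rise, 4 lay on chromosome 4, which held 7.19% of all gained regions. These bins form adjacent pairs. The pair starting at chr4:145000001 overlaps the series of gained regions at chr4:145396983-147296933, so these results share a locus. The bin at chr4:152000001-153000000 had 18, 15 and 19 of the strongest peaks at D10, against 0, 0 and 1 at D0 (log2 change 3.07 ± 0.33 SE, adjusted p = 2.27e-08). No D2 library had any peak in it, whereas all deposited peaks numbered 15 and 63 in KO1 and KO2 at D0. The bins at chr4:145000001-146000000 and chr4:146000001-147000000 had 25, 18 and 22 and 28, 35 and 30 peaks at D10, against 1, 1 and 5 and 2, 1 and 5 at D0. The bins at chr4:153000001-154000000 and chr12:20000001-21000000 completed the 5.

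The bin with the largest fall, chr19:50000001-51000000, had 0, 1 and 0 of the strongest peaks at D10, against 31, 25 and 18 at D0 (log2 change −3.51 ± 0.30 SE, adjusted p = 6.36e-10 by limma). All deposited peaks there numbered 34 in KO1 and 7 in KO2 at D10, and 1, 0 and 2 in mESC at 0, 12 and 72 hours. At chr5:14000001-15000000 D10 libraries had no peak at all, even among all deposited ones, against 22, 30 and 23 deposited peaks at D0. At chr9:28000001-29000000 each D10 library had 1 of the strongest peaks, against 32, 28 and 18 at D0. The bins at chr7:58000001-59000000 and chr7:64000001-65000000 followed, with log2 changes of −2.92 and −2.89.

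The shares of whole chromosomes moved by little. By limma over 19 chromosomes, the share of the strongest peaks was higher at D10 on 8 chromosomes (42.1%; chromosomes 4, 8, 10, 11, 12, 15, 17 and 19) and lower on 7 (36.8%; chromosomes 1, 2, 3, 6, 9, 13 and 18), at an adjusted p at or under 0.05. The shares sum to the whole list, so a rise on one chromosome goes with falls on others. Chromosome 15 held 4.55, 4.68 and 4.72% of the peaks at D10, against 3.77, 3.93 and 4.00% at D0 (log2 change 0.25 ± 0.03 SE, adjusted p = 7.16e-06). Chromosome 17 followed, with 5.46 ± 0.0891% at D10 and 4.69 ± 0.118% at D0 (SD, n = 3 each). Chromosome 1 fell most, to 6.22, 6.19 and 5.99% at D10, against 7.15, 7.09 and 6.92% at D0. On chromosome 18 the libraries of the 2 days overlapped.

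**Figure D5:**
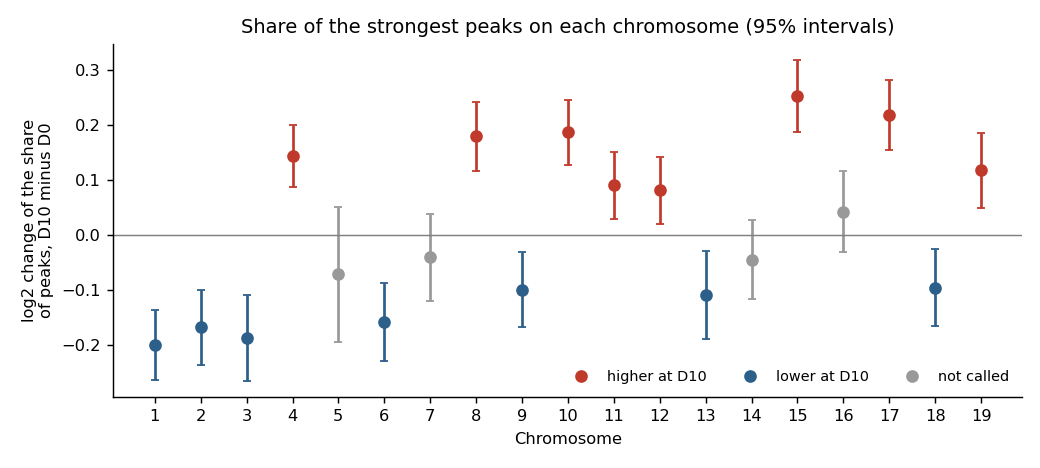
Log2 change of the share of the strongest peaks on each chromosome, D10 minus D0 (y axis), with 95% intervals from limma over the 9 WT libraries. Chromosome 15 has the largest rise, 0.25, and chromosome 1 the largest fall, −0.20.

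The median peak was narrower at D10 in each replicate letter, but the difference did not pass the test. The median width of the strongest peaks was 343, 334 and 278 bp at D10, against 392, 519 and 336 bp at D0 (difference −97.3 bp, two-sided exact permutation p = 0.2), and the days overlapped. Over all deposited peaks the medians were 319, 316 and 278 bp at D10, against 341, 413 and 328 bp at D0. There the days did not overlap (difference −56.3 bp, exact permutation p = 0.1, the smallest possible). Without WT D0 B the difference was −45.7 bp. Peaks of at least 1 kb made up 1.25, 1.32 and 0.351% of the strongest at D10, against 2.66, 9.95 and 0.347% at D0 (exact permutation p = 0.4). Without WT D0 B this difference was −0.528 percentage points, against −3.34 with it. The difference within C was 0.00364 percentage points.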

How the data were processed

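5hmC-enriched DNA was sequenced in each library. The submitters' processing notes name the mm9 build and the tools Bowtie, SAMtools and MACS2, without versions. Each of 18 libraries has its own deposited list of peaks in 10 columns. In these lists the authors' score, the fold enrichment as a linear ratio, and −log10 of p and q are values per peak, per the column layout of the deposited files; within a list they ranked and filtered peaks, and the fold also gave depth. Absolute depth is unknown. A label says that peaks were not called for the mESC libraries, but lists of the same layout exist for them and were used as deposited.

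Lists were cut to their 54997 strongest peaks on chromosomes 1 to 19 for the limma tests, the rank overlaps and the main tests of width. Region classes, summit distances and the test of peak number used full lists. Peaks were merged into regions at 1 bp of overlap. Windows of 10 kb (mean of at least 500 covered bp, scaled to the mean total, pseudocount 200 bp), bins of 1 Mb (mean of at least 5 peaks, pseudocount 2) and chromosome shares were tested with limma 3.58.1 in R 4.3.3 over 9 WT libraries (eBayes, with trend and robust for windows and bins), with Benjamini-Hochberg adjustment. The script was tested on simulated data. Other work used Python 3.11.15. Single values per library were tested by two-sided exact permutation, summit distances by recomputing the statistic for all 20 assignments of libraries to days. Shares have 95% Wilson intervals.

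Named were the 8 windows and 5 bins with the largest change in each direction, past the threshold with days that do not overlap, and the 6 regions per class whose lowest percentile by the authors' −log10 p, over the libraries with a peak, was highest. Runs of regions were chosen after their values were seen. Gene lists and markers laid down in the plan needed an mm9 annotation and were not analysed here. The members and lists were chosen with earlier results of these data known.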

Additional observations from a re-analysis of the deposited data

Results flagged for a closer look

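The change over 10 days differed between KO and WT cells in part of the tested windows. In the fit of 15 pre-iPSC libraries, limma's interaction term passed the adjusted threshold of 0.05 in 256 of 15731 windows (1.63%) where the WT change was the higher one and in 1009 (6.41%) where the WT change was the lower one. The KO lines differed from each other at D10, and the part of that difference in these counts was not tested.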

How the results depend on the processing

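Every named window and bin kept its direction and its side of the threshold under the alternatives that gave it a value. The exact tests of peak number and width cannot pass 0.05 with 3 against 3 libraries. Counts of bins and chromosomes stayed within 1.5 times. With equal numbers of strongest peaks, 17891 regions were lost and 1876 shared. With −log10 q of at least 5, 12058 were gained, 25695 lost and 2003 shared. With presence in at least 2 of 3 libraries, 45102 were gained, 64920 lost and 12254 shared. Asking for 200 covered bp changed nothing, since the smallest peak spans 212 bp. Leaving out 1 library gave 20097 to 34986 gained, 27645 to 57817 lost and 3230 to 5752 shared regions. The mean share with a D2 peak was 20.6, 41.1 and 88.9% of gained, lost and shared regions with equal lists; with letter C left out of the calling it was 45.9% of lost and 92.1% of shared regions, and without 1 library 45.4 to 63.1% of lost and 93.5 to 96.8% of shared ones. The cause of these moves was not tested.

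Windows lower at D10 numbered 8686 with all deposited peaks and 2542 with the 6 libraries alone. Higher and lower windows numbered 5706 and 6154 with −log10 q of at least 5, 9924 and 12126 with every covered window, 114 and 37 with a mean of at least 2000 bp, and 7097 and 8746 over 5 kb. With the 6 libraries alone 3538 were higher; with 15 libraries 2275 were higher and 4289 lower. Without 1 library, 2331 to 3870 windows were higher and 2625 to 4417 lower. With the replicate letter as a replicate block, 3281 windows were higher and 3895 lower; 412 and 599 bins were called, and the exact tests within letters allow no p under 0.25. Deviations of same-lettered D10 and D0 libraries correlated by 0.0213 to 0.0458, and those of different-lettered ones by −0.0320 to −0.00570. These correlations are small, and whether the letters pair the libraries was not tested.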

Other observations

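Chromosome X, outside the comparison above, held 0.419, 0.356 and 0.241% of all peaks at D10, against 0.656, 0.680 and 0.879% at D0. The days did not overlap (difference −0.40 percentage points, two-sided exact permutation p = 0.1, the smallest possible). Within letters the difference was −0.237, −0.324 and −0.638 percentage points. The share was 0.353, 0.334 and 0.286% at D2, and 0.585, 0.2204 and 1.01% in mESC at 0, 12 and 72 hours.

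Of the bins with the largest rise, 2 on chromosome 4 are given in KO cells. In chr4:146000001-147000000 all deposited peaks numbered 12 and 1 in KO1 and KO2 at D10, and 6 and 3 at D0, against 41, 42 and 30 in WT at D10. In mESC they numbered 18, 27 and 45 at 0, 12 and 72 hours. In chr4:153000001-154000000 they numbered 33 and 71 in KO1 and KO2 at D10, and 32 and 58 at D0, against 77, 68 and 57 in WT at D10. The WT D0 C list held 43 peaks on chromosome Y and 9 on the mitochondrial genome, where no other of the 6 lists held more than 9 on Y or any on the mitochondrial genome.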
